A study of Mus musculus with 4 samples.

Results

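The genes described here encode the ephrins and their Eph receptors, the Slits and their Robo receptors, and the netrins and their receptors of the DCC, neogenin and UNC5 type. They were chosen by gene symbol alone, and 38 of the 28649 gene rows of the deposited table matched, 14 ligands and 24 receptors. The RNA had been captured from FAPs (fibro-adipogenic progenitors), stromal cells of the muscle interstitium that can become fibroblasts or fat cells, sorted as Sca1+ cells from C57Bl/6 wild-type mice. The cells were grown to about 80% confluency, transfected for 24 hours with a biotin-tagged miR-206 mimic or a biotin-tagged control mimic, and held for 48 hours in DMEM with 10% horse serum before the pulldown. Both groups therefore shared the strain, the sort, the transfection and the medium, and differed in the mimic; each group had 2 libraries, numbered replicate 1 and 2. The labels do not give the number of mice, nor whether replicates were separate sorts or cultures, and p-values therefore cover the spread among these libraries alone, possibly a technical one. Unselected RNA was not analysed here, so a difference between pulldowns was not set against how much of the transcript the cells held.

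Guidance genes were named for steering axons, and they also position cells and shape vessels outside the nervous system. Ephrins are tethered to the membrane, the A class by a lipid anchor and the B class by a transmembrane segment, and they bind Eph receptor tyrosine kinases on a neighbouring cell, with signals passing into both cells. Slits are secreted proteins that bind Robo receptors and usually repel. Netrins are laminin-related secreted proteins that attract through DCC or neogenin and repel through UNC5 receptors.

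The mimic is the bait of the pulldown, so the sequence of miR-206 is shown first. The mature 3p strand of mouse miR-206 lies at chr1:20679055-20679076 on the plus strand of GRCm38.p6 (RefSeq); the labels do not state the strand of the mimic. The capitals mark the seed, bases 2 to 8, which pairs with a target as the site ACAUUCC.
mmu-miR-206-3p: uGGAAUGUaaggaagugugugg
Transcript sequences were not used here, so sites in the guidance transcripts were not counted.

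The libraries held 8883197 and 14261566 estimated counts (control replicates 1 and 2) and 14566568 and 15426666 (miR-206 replicates 1 and 2). Levels are given as normalised CPM, counts per 1e6 after TMM scaling, which compares one gene across libraries, or as TPM, which is scaled by transcript length and compares genes. The TMM factors were 1.62 and 1.34 for the control and 0.624 and 0.737 for the miR-206 libraries, so the direction of small differences rested on the scaling. Runx1, the published miR-206 target in FAPs, checked the capture, with 82.3 and 91.2 normalised CPM in the control and 3192 and 2009 in the miR-206 pulldowns. In these bulk samples fewer cells of a type and less RNA per cell cannot be told apart.

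The summed TPM of 6 FAP markers was 2148 and 2898 in the control and 3973 and 4197 in the miR-206 pulldowns. Its members did not move alike, since Osr1 stood at 82.2 and 103 TPM in the control and at 1345 and 1298 in the miR-206 pulldowns, while Dcn stood at 346 and 493 against 143 and 174. The summed TPM of 8 endothelial markers was 87.4 and 39.2 (control) and 38.9 and 37.4 (miR-206), with Emcn listed at 0 in 1 miR-206 library. Pecam1 made up most of that sum, at 73.5 and 24.1 against 31.0 and 26.0 TPM. Of the Schwann and neural markers, Ngfr had 3.74 and 9.48 against 90.9 and 101 TPM, while Sox10 stayed under 1 TPM in each library. Pericyte and smooth muscle markers summed to 72.8 and 75.1 against 131 and 86.0 over 6 genes, 5 myogenic markers to 22.9 and 24.6 against 36.4 and 23.0, and 4 immune markers to 10.1 and 9.12 against 3.29 and 4.81. The pericyte and smooth muscle members moved both ways, with Rgs5 at 3.56 and 4.85 against 71.2 and 37.7 TPM. Acta2 stood at 65.6 and 65.6 against 23.7 and 17.1 TPM. On log2 TPM with 1 added, the median log2 fold of all tested genes, miR-206 over control, was -0.70. Falls in TPM are to be read against that shift. Of the tested markers, 3 of 6 FAP, 2 of 8 endothelial, 2 of 6 pericyte and smooth muscle, 2 of 4 myogenic and 0 of 3 immune genes were enriched (edgeR), and 0 were depleted, beside 15.3% enriched and 6.19% depleted of all tested genes. The part of these cell types in the results below was not tested.

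**Figure D1:**
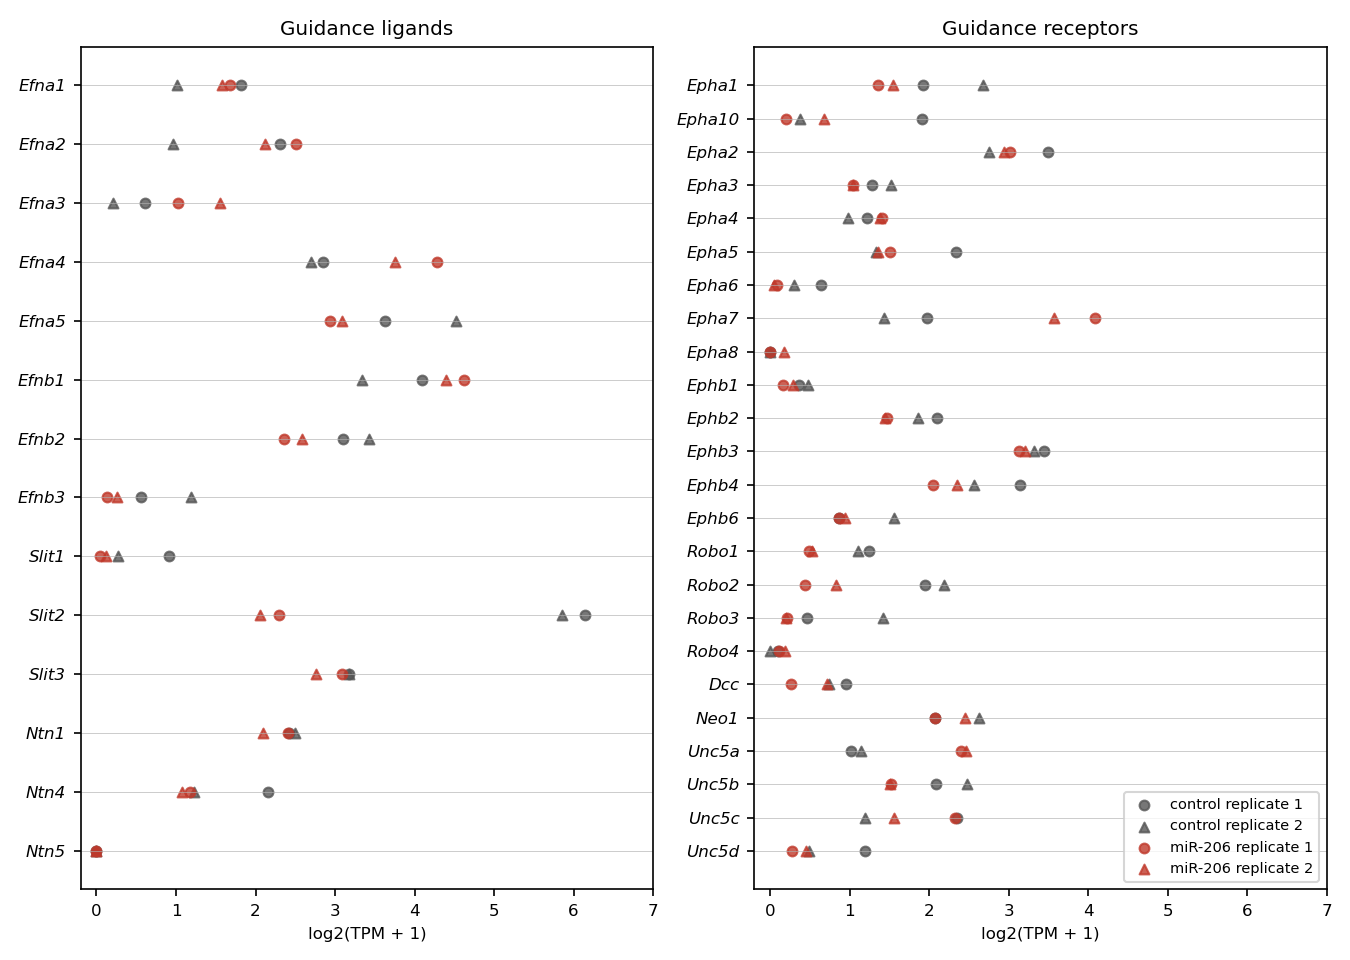
Level of each of the 38 guidance genes in each library, as log2(TPM + 1), with 14 ligands on the left and 24 receptors on the right; grey marks are control and red marks miR-206 libraries, circles replicate 1 and triangles replicate 2. Slit2 stands at 69.6 and 56.6 TPM with the control mimic and at 3.89 and 3.17 TPM in the miR-206 pulldowns, while most other genes lie under 10 TPM in every library.

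In the control pulldown Slit2, a secreted ligand of the Robo receptors, was the most abundant of the guidance transcripts per length, and in the miR-206 pulldown it was not. Its mean was 63.1 ± 9.19 TPM in the control libraries (SD, n = 2), followed by Efna5 with 16.6 ± 7.44, Efnb1 with 12.5 ± 4.89 and Ephb3 with 9.45 ± 0.638 TPM. The ranges of Efna5 and Efnb1 overlapped, and so did those of Efnb1 and Ephb3. In the miR-206 libraries the order began with Efnb1 at 21.8 ± 2.48, Efna4 at 15.5 ± 4.30 and Epha7 at 13.5 ± 3.62 TPM, ranges that overlapped for Efna4 and Epha7, and Slit2 stood in place 14 with 3.53 ± 0.509 TPM. Slit2 held 49.3% and 43.9% of all counts of the 38 genes with the control mimic and 4.15% and 3.68% in the miR-206 pulldowns. The 38 genes together had 202 and 177 TPM in the control and 136 and 121 TPM in the miR-206 pulldowns. That fall was about the size of the fall of Slit2 alone, from 69.6 and 56.6 to 3.89 and 3.17 TPM.

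At the low end, 35 of the 38 genes had counts in all 4 libraries. Ntn5, a netrin, was listed at 0 in each, which allows up to 0.209 and 0.157 normalised CPM in the control and 0.330 and 0.264 in the miR-206 pulldowns (3 counts a library, for counting error only). Epha8, an Eph receptor, had 9 counts in miR-206 replicate 2 and 0 elsewhere. Robo4, the Robo receptor of endothelial cells, had 3 and 0 counts in the control pulldowns against 4 and 8 with miR-206, and Epha6 had 8 and 5 against 2 and 2 counts after rounding. These 4 genes did not pass the filter on low counts, and the other 34, 13 ligands and 21 receptors, were tested. A gene that is abundant in only 1 group can pass this filter through that group, so the 34 tested are a selected part. Efna3 had few counts in the control pulldowns (12 and 5), and Slit1 (2 and 6) and Efnb3 (4 and 9) had few with miR-206. These 3 genes enter the tallies below with this limit.

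The comparison of the pulldowns asked which guidance transcripts were captured more with the miR-206 mimic. A transcript is called enriched (miR-206 higher) or depleted (miR-206 lower) where the adjusted p of edgeR's quasi-likelihood test, over all 15240 genes tested, lies under 0.05. Of the 34 guidance genes, 5 were enriched, beside 15.3% of all tested genes, and 1 was depleted, beside 6.19%. As shares, 14.7% of the guidance genes were enriched and 2.94% depleted, so enrichment was about as frequent as among all genes. The enriched genes were the ligands Efna3, Efna4 and Efnb1 and the receptors Epha7 and Unc5a, and the depleted gene was the ligand Slit2. In 14 of the 34 both miR-206 libraries lay above both control libraries, beside 29.7% of all tested genes, and in 8 both lay below, beside 32.3%.

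Ligands and receptors were set side by side. Of 13 ligands 3 were enriched (23.1%) and 1 depleted (7.69%), and of 21 receptors 2 were enriched (9.52%) and 0 depleted. Among all tested genes 15.3% were enriched and 6.19% depleted. No receptor was depleted with DESeq2 either, which called 3 receptors enriched and, of all genes it gave an adjusted p, 17.3% enriched and 6.20% depleted. In edgeR 0 receptors had a negative log2 fold with an unadjusted p under 0.05. With total counts alone 6 receptors passed as depleted, beside 45.3% of all tested genes, so depletion was not more frequent among the receptors. The median log2 fold (miR-206 over control) was 0.23 for the ligands and 0.0063 for the receptors, beside -0.11 for all tested genes. The difference of 0.22 lay inside its range over the 4 pairings of a single miR-206 with a single control library. That range, -0.25 to 0.79 (SD 0.45), held both signs. The pairings share libraries and use single-library log2 levels in place of fitted folds, so the SD is a rough guide and no error. The widest range was among the ligands, from -3.54 to 2.93, against -1.63 to 3.89 for the receptors.

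**Figure D2:**
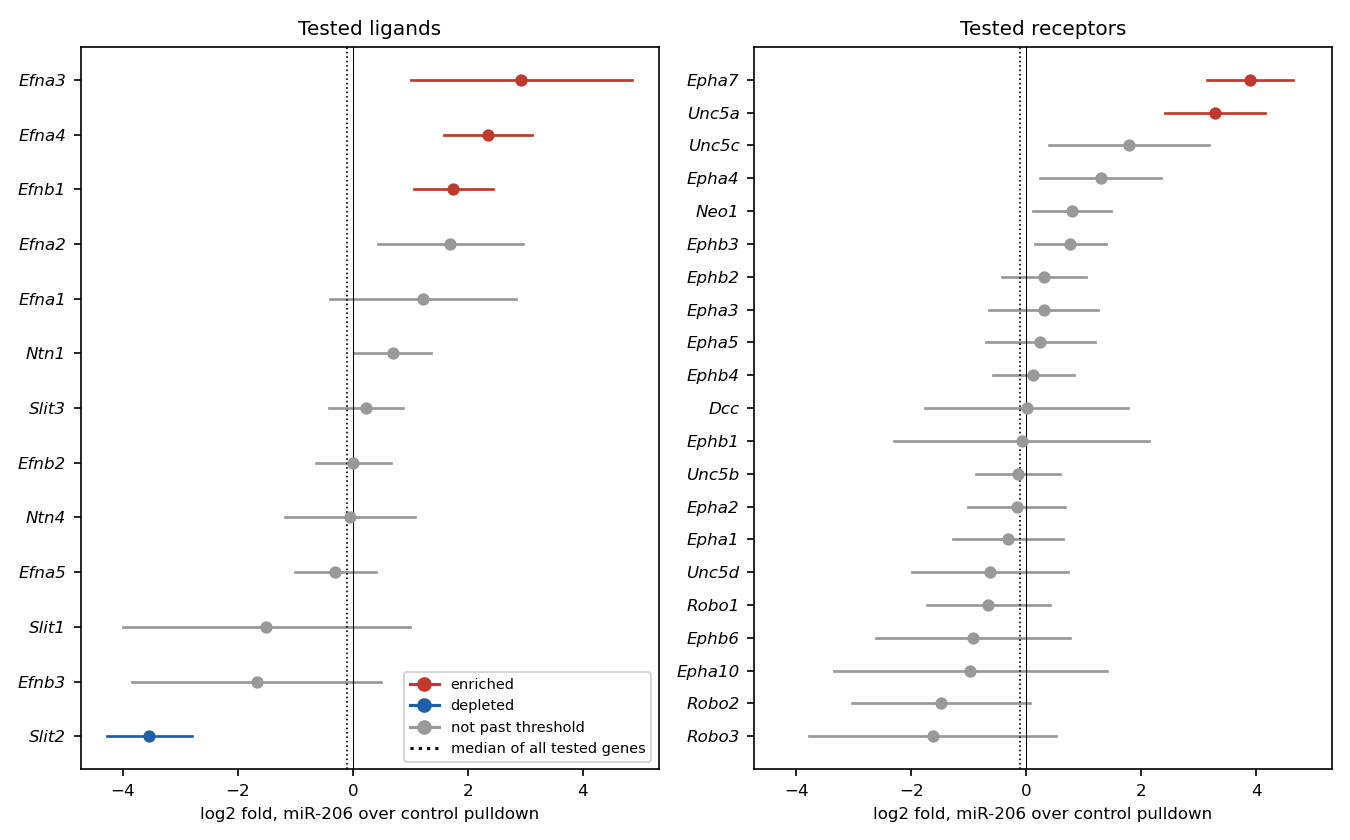
Log2 fold (miR-206 over control pulldown) of the 34 tested guidance genes, 13 ligands on the left and 21 receptors on the right, with 95% intervals from 2 libraries a group; red is enriched, blue depleted, grey not past the threshold, and the dotted line is the median of all tested genes. Epha7 at 3.89 and Slit2 at -3.54 lie at the ends, and most intervals cross 0.

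Of the 5 A-class ephrins 2 were enriched, beside 15.3% of all tested genes. In normalised CPM both miR-206 libraries lay above both control libraries for 4 of the 5, beside 29.7% of all tested genes. In TPM the groups of Efna1 and Efna2 overlapped. Efna4, a lipid-anchored ligand of EphA receptors (chromosome 3, 89333393 to 89338028, GRCm38.p6), had 6.33 and 5.93 normalised CPM in the control and 38.4 and 24.2 in the miR-206 pulldowns. Both miR-206 libraries lay far above the controls, and the log2 fold was 2.35 ± 0.36 (SE) (95% interval 1.59 to 3.11, edgeR adjusted p = 8.6e-05). Efna3, of the same class (chromosome 3, 89313899 to 89322939), was rare, with 12 and 5 counts in the control pulldowns against 30 and 57 with miR-206. Its levels of 0.835 and 0.262 against 3.30 and 5.02 normalised CPM did not overlap, and its log2 fold was 2.93 ± 0.91 (edgeR adjusted p = 0.0288). That call did not hold without control replicate 2 (edgeR adjusted p = 0.0602), without miR-206 replicate 1 (0.0852) and without miR-206 replicate 2 (0.155). Its span holds the annotated lncRNA genes Gm34014 and Gm15998, and the sources used here do not say whether the counting used strand.

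Efna1 lies beside these genes, and the 3 span 66.3 kb of chromosome 3. It had 2.37 and 1.00 normalised CPM in the control and 4.18 and 3.61 in the miR-206 pulldowns, which did not overlap. Its log2 fold of 1.22 ± 0.77 did not pass (edgeR adjusted p = 0.293). The fold was 0.041 with total counts alone and 0.22 with TPM (pseudocount 1). Efna2, on chromosome 10, had 5.57 and 1.42 against 13.4 and 8.98 normalised CPM. Its log2 fold of 1.69 ± 0.59 lay just outside the threshold (edgeR adjusted p = 0.0540). The fold was 2.97 without control replicate 1 and 1.00 without control replicate 2. Efna2 passed with DESeq2 (adjusted p = 0.0431) and in edgeR with no filter on low counts (0.0116). With no filter 10.3% of all genes were enriched and 5.04% depleted. Efna2 did not pass in edgeR with the upper quartile (1.35, adjusted p = 0.165) or total counts alone (0.48, 0.566). Nor did it pass with TPM at a pseudocount of 1 (0.68, limma adjusted p = 0.253). Efna5, the most abundant A-class ephrin of the control pulldown, had 31.6 and 64.0 against 37.6 and 39.8 normalised CPM, so its groups overlapped, with a log2 fold of -0.31 ± 0.33 (edgeR adjusted p = 0.566). Without control replicate 2 the fold of Efna5 was 0.29. It passed as depleted on the TPM scale with a pseudocount of 1 (-1.05, limma adjusted p = 0.0402) and in edgeR with total counts alone (-1.38, adjusted p = 0.00333), settings in which 38.5% and 45.3% of all tested genes were depleted.

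The 3 B-class ephrins, transmembrane ligands that mostly bind EphB receptors, did not move alike. Efnb1 (chromosome X, 99136061 to 99149022) had 35.6 and 21.2 normalised CPM in the control and 106 and 84.5 in the miR-206 pulldowns. The groups stood apart, with a log2 fold of 1.75 ± 0.32 (95% interval 1.06 to 2.43, edgeR adjusted p = 0.000614). Efnb2, which marks arterial endothelium, had 22.6 and 30.6 against 25.0 and 28.5 normalised CPM. Its groups overlapped, and the log2 fold of 0.0077 had a 95% interval of -0.64 to 0.66 (edgeR adjusted p = 0.991). Efnb3 had 15 and 56 counts in the control pulldowns against 4 and 9 with miR-206, and its log2 fold of -1.67 ± 1.03 did not pass (edgeR adjusted p = 0.280).

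Of the 12 tested Eph receptors 1 passed as enriched, or 8.33%, beside 15.3% of all tested genes. The 1 was Epha7, a receptor of the A-class ephrins (chromosome 4, 28813066 to 28967503). It had 9.40 and 6.87 normalised CPM in the control and 148 and 93.5 in the miR-206 pulldowns, which made it the most enriched of the guidance genes and place 373 of 15240 by fold. The log2 fold was 3.89 ± 0.36, a 14.9-fold difference (95% interval 3.14 to 4.64, edgeR adjusted p = 3.2e-07). Per length its mean rose from 2.31 ± 0.876 to 13.5 ± 3.62 TPM, a ratio of 5.83. The deposited TPM values carry no TMM scaling.

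The other A-type receptors that were tested had log2 folds between -0.97 and 1.29. Epha4 had 5.29 and 2.62 against 10.1 and 9.15 normalised CPM, groups that did not overlap. Its log2 fold of 1.29 ± 0.50 did not pass (edgeR adjusted p = 0.0772). The fold of Epha4 was 1.87 without control replicate 1 and 0.86 without control replicate 2. It was 0.12 with total counts alone and 0.30 with TPM (pseudocount 1). Epha5 had 14.6 and 5.72 against 13.4 and 10.6 normalised CPM, with overlapping groups and a log2 fold of 0.24 ± 0.45. Epha2, which binds Efna1 and is common in epithelia, stood at 10.4 and 9.49 against 9.36 and 8.36 normalised CPM, a log2 fold of -0.17 ± 0.40. Epha1 (-0.32 ± 0.45), Epha3 (0.30 ± 0.45) and Epha10 (-0.97 ± 1.11) did not pass, and Epha10 rested on 69 and 7 counts in the control pulldowns against 5 and 23 with miR-206 after rounding. Without control replicate 1, the library with 69 counts, the log2 fold of Epha10 was 1.80.

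Of the 5 EphB receptors 0 passed in either direction with edgeR under TMM or with DESeq2. Of all genes given an adjusted p, edgeR called 15.3% enriched and 6.19% depleted, and DESeq2 17.3% and 6.20%. With total counts alone Ephb4 passed as depleted (-1.01, edgeR adjusted p = 0.0436), beside 45.3% of all tested genes. Under TMM 1 of the 5, Ephb3, had an unadjusted p under 0.05. Ephb3 had 21.1 and 22.7 normalised CPM in the control and 37.4 and 37.0 in the miR-206 pulldowns. The groups did not overlap and replicates lay close together, but the log2 fold of 0.76 ± 0.29 did not pass (edgeR adjusted p = 0.0743), with an interval from 0.15 to 1.38, and it turned to -0.35 with total counts alone and to -0.22 with TPM (pseudocount 1). Ephb2 had 12.5 and 15.1 against 14.5 and 19.6, and Ephb4, the venous receptor of Efnb2, had 22.9 and 15.0 against 18.3 and 22.9 normalised CPM. Both overlapped, with log2 folds of 0.31 ± 0.35 and 0.12 ± 0.34. Ephb1 (-0.085 ± 1.05) and the kinase-inactive Ephb6 (-0.93 ± 0.80) were rare, with means under 3 normalised CPM over the libraries. For the pair Efnb2 and Ephb4, ligand and receptor thus had log2 folds of 0.0077 and 0.12, both within their errors of 0.

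Slit2 was the depleted guidance gene. The gene (chromosome 5, 47981291 to 48307735) had 328 and 275 normalised CPM in the control and 29.5 and 22.4 in the miR-206 pulldowns. Both miR-206 libraries were far below both controls, and the log2 fold was -3.54 ± 0.35, an 11.6-fold lower level (95% interval of the log2 fold -4.28 to -2.80, edgeR adjusted p = 7.4e-07). It took place 138 of 15240 from the low end. The counts behind it were 4709 and 5239 against 268 and 254, so it had the most counts of any guidance gene in the control libraries. Its span also holds the microRNA gene Mir218-1.

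The other Slits did not follow Slit2 past the threshold. Slit3 had 21.4 and 24.5 normalised CPM in the control and 26.6 and 27.1 in the miR-206 pulldowns, with a log2 fold of 0.23 ± 0.30 (95% interval -0.41 to 0.86, edgeR adjusted p = 0.649). Slit1 had 22 and 13 counts in the control pulldowns against 2 and 6 with miR-206, and its log2 fold of -1.51 ± 1.18 did not pass (edgeR adjusted p = 0.407). The intervals of Slit2 and Slit3 did not overlap, and the difference between the genes was not tested.

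The 3 tested Robo receptors were lower in both miR-206 libraries, beside 32.3% of all tested genes. With edgeR under TMM or with DESeq2 0 passed, beside 6.19% and 6.20% depleted of all genes given an adjusted p. With total counts alone Robo1 (-1.79, edgeR adjusted p = 0.0162) and Robo2 (-2.54, 0.0170) passed as depleted, beside 45.3% of all tested genes, while with median-centred TPM the fold of Robo1 was 0.051. Robo1, a receptor of Slit1, Slit2 and Slit3, had 7.31 and 6.50 normalised CPM in the control and 4.29 and 4.40 in the miR-206 pulldowns (log2 fold -0.67 ± 0.51, edgeR adjusted p = 0.392). Robo2 had 3.62 and 5.40 against 0.991 and 2.20 normalised CPM, and its log2 fold was -1.48 ± 0.73 (edgeR adjusted p = 0.170). Robo2 passed as depleted on the TPM scale with a pseudocount of 1 (log2 fold -1.43, limma adjusted p = 0.0130), where 38.5% of all tested genes were depleted and 7.17% enriched. Robo3, of commissural neurons, rested on 19 and 53 counts in the control pulldowns against 3 and 11 with miR-206, with a log2 fold of -1.63 ± 1.02 (edgeR adjusted p = 0.289). The unadjusted p of Robo1, Robo2 and Robo3 was 0.206, 0.0585 and 0.128.

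Of the 6 tested netrin receptors 1 passed as enriched, or 16.7%, beside 15.3% of all tested genes. Unc5a, a netrin receptor of the repellent type (chromosome 13, 54945151 to 55006018), had 2.78 and 1.89 normalised CPM in the control and 22.8 and 22.5 in the miR-206 pulldowns. The miR-206 replicates nearly coincided, and the log2 fold was 3.28 ± 0.41 (95% interval 2.41 to 4.15, edgeR adjusted p = 9.6e-06). The counts were 40 and 36 against 207 and 256, and the span overlaps the annotated genes Hk3 and Gm31313, the latter a lncRNA. Unc5c had 9.60 and 3.25 against 32.4 and 11.8 normalised CPM, so that the replicates differed widely within each group. Its log2 fold of 1.79 ± 0.61 did not pass (edgeR adjusted p = 0.0735). Leaving out control replicate 1 raised the fold to 2.75, and leaving out control replicate 2 lowered it to 1.19. Dropping miR-206 replicate 1 gave a fold of 0.81, against 2.32 when miR-206 replicate 2 was dropped. Unc5c passed with DESeq2, at 1.81 (adjusted p = 0.0131), and in edgeR with no filter on low counts, at 1.74 (adjusted p = 0.00013). The upper quartile (1.44, edgeR adjusted p = 0.123) and total counts alone (0.55, 0.455) gave no call for Unc5c. Nor did TPM at a pseudocount of 1 (0.17, limma adjusted p = 0.785).

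Unc5b, an UNC5 receptor known from endothelium, had 13.4 and 19.6 against 15.6 and 14.3 normalised CPM, with overlapping groups and a log2 fold of -0.14 ± 0.35. Unc5d, with means of 5.44 and 3.48 normalised CPM, had -0.63 ± 0.64, and 0.38 without control replicate 1. Neo1, neogenin, a receptor shared by netrins and repulsive guidance molecules, had 16.8 and 28.3 against 34.0 and 44.3 normalised CPM, which did not overlap. Its log2 fold of 0.80 ± 0.32 did not pass (edgeR adjusted p = 0.0933), and it passed without control replicate 2, at 1.22 (0.0131), whereas with total counts alone its fold was -0.27 and with TPM (pseudocount 1) -0.084. Dcc, the attractive netrin receptor of neurons, had 37 and 36 counts in the control pulldowns against 10 and 38 with miR-206, with a log2 fold of 0.0063 ± 0.84.

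Of the 2 netrins tested, 0 passed with edgeR under TMM or with DESeq2. Of all genes given an adjusted p, edgeR called 15.3% enriched and 6.19% depleted, and DESeq2 17.3% and 6.20%. Ntn1 had an unadjusted edgeR p under 0.05. Ntn1, the diffusible netrin, had 17.5 and 19.5 normalised CPM in the control and 35.0 and 24.8 in the miR-206 pulldowns. Both miR-206 libraries were higher, and the log2 fold of 0.69 ± 0.32 did not pass (edgeR adjusted p = 0.139) and turned to -0.44 with total counts alone and to -0.21 with TPM (pseudocount 1). Ntn4, a netrin of basement membranes, had 8.63 and 3.51 against 6.38 and 5.28 normalised CPM, with overlapping groups and a log2 fold of -0.054 ± 0.54, which was 0.73 without control replicate 1.

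The calls that did not depend on the scaling were those of Slit2, Epha7, Unc5a and Efna4. Each of the 4 passed, with an unchanged sign, in all 6 scalings tried, namely TMM, RLE, total counts alone, the upper quartile, and TPM with or without centring on the median. Over all 15 alternative settings Slit2 lay between -4.69 and -3.10 (adjusted p at most 0.000265), Epha7 between 2.13 and 4.18 (0.00462), Unc5a between 1.35 and 3.58 (0.0166) and Efna4 between 1.20 and 2.64 (0.0202). Efnb1 was called under 4 of the 6 scalings and Efna3 under 3. With total counts alone the median log2 fold of all genes was -1.22, and 10 guidance genes passed as depleted, beside 45.3% of all tested genes, while 3 passed as enriched, beside 7.02%. Besides Slit2 and Robo2, those 10 lay between -1.79 and -0.88, around that median.

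**Figure D3:**
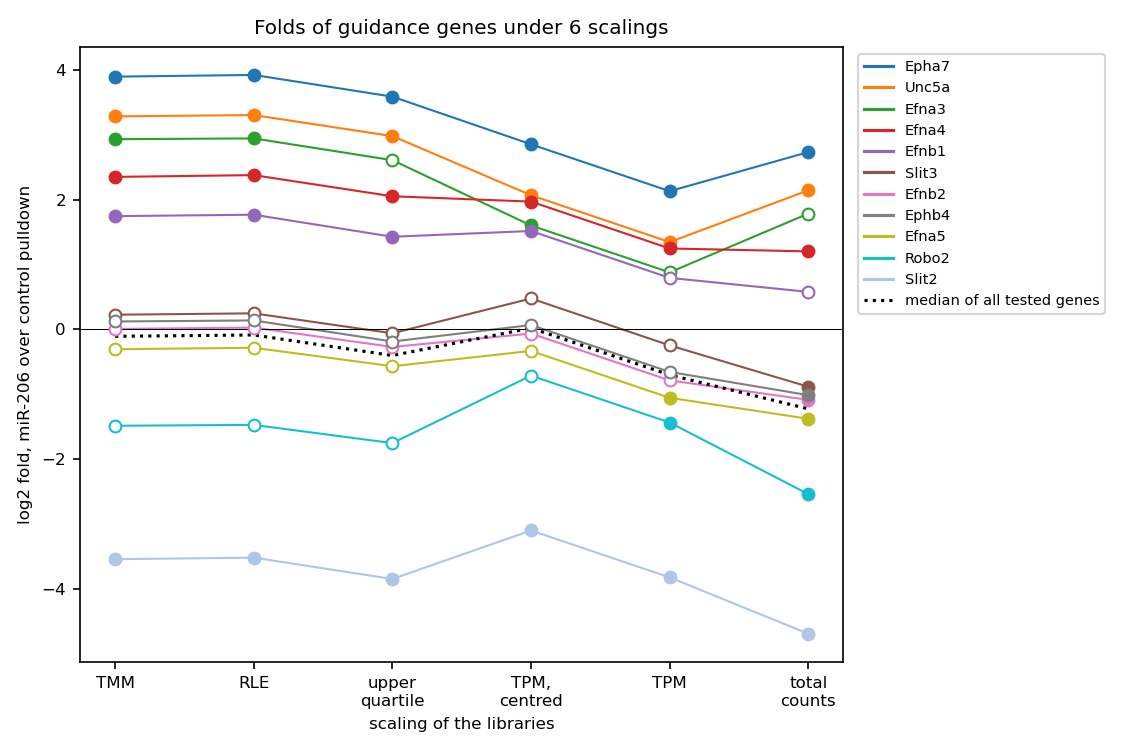
Log2 fold (miR-206 over control pulldown) of 11 guidance genes under 6 ways of scaling the libraries, with filled marks where the gene passed the threshold and open marks where it did not; TPM values are log2 of TPM plus a pseudocount of 1. The dotted median of all tested genes falls from -0.11 with TMM to -1.22 with total counts, and Efnb2 and Ephb4 move with it while Epha7, Unc5a, Efna4 and Slit2 keep filled marks throughout.

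Partners and effectors of these receptors were taken as a list of 54 genes, all of which were tested. Of these, 14 were enriched and 5 depleted, beside 15.3% and 6.19% of all tested genes, and their median log2 fold was 0.26 against -0.11 for all genes. The 3 Slit-Robo GTPase-activating proteins, which bind the inner part of Robo receptors, were all enriched. Srgap1 had 11.7 and 14.7 normalised CPM in the control and 113 and 101 in the miR-206 pulldowns (log2 fold 3.02 ± 0.31, edgeR adjusted p = 1.2e-06). Srgap2 had 34.7 and 30.0 against 514 and 322 (log2 fold 3.69 ± 0.38). Srgap3 had 30.4 and 28.9 against 663 and 360 (4.11 ± 0.40). All 3 stood apart between the groups and kept their calls in each of 15 alternative settings, with adjusted p at most 0.00528, whereas the Robo receptors that they bind did not pass.

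Other partners of the Slit-Robo system went both ways. Usp33, a deubiquitinase that binds Robo1, had 45.8 and 55.3 normalised CPM in the control and 661 and 1725 in the miR-206 pulldowns (log2 fold 4.56 ± 0.49, edgeR adjusted p = 4.3e-06). Gpc1, a heparan sulfate proteoglycan that binds Slit, had 61.8 and 58.4 against 268 and 195 (1.95 ± 0.32). Myo9b, a myosin with a GTPase-activating domain that Robo1 binds, fell from 115 and 94.0 to 17.1 and 22.3 normalised CPM (log2 fold -2.40 ± 0.31, edgeR adjusted p = 1.4e-05). The calls of these 3 genes held in the 15 alternative settings.

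**Figure D4:**
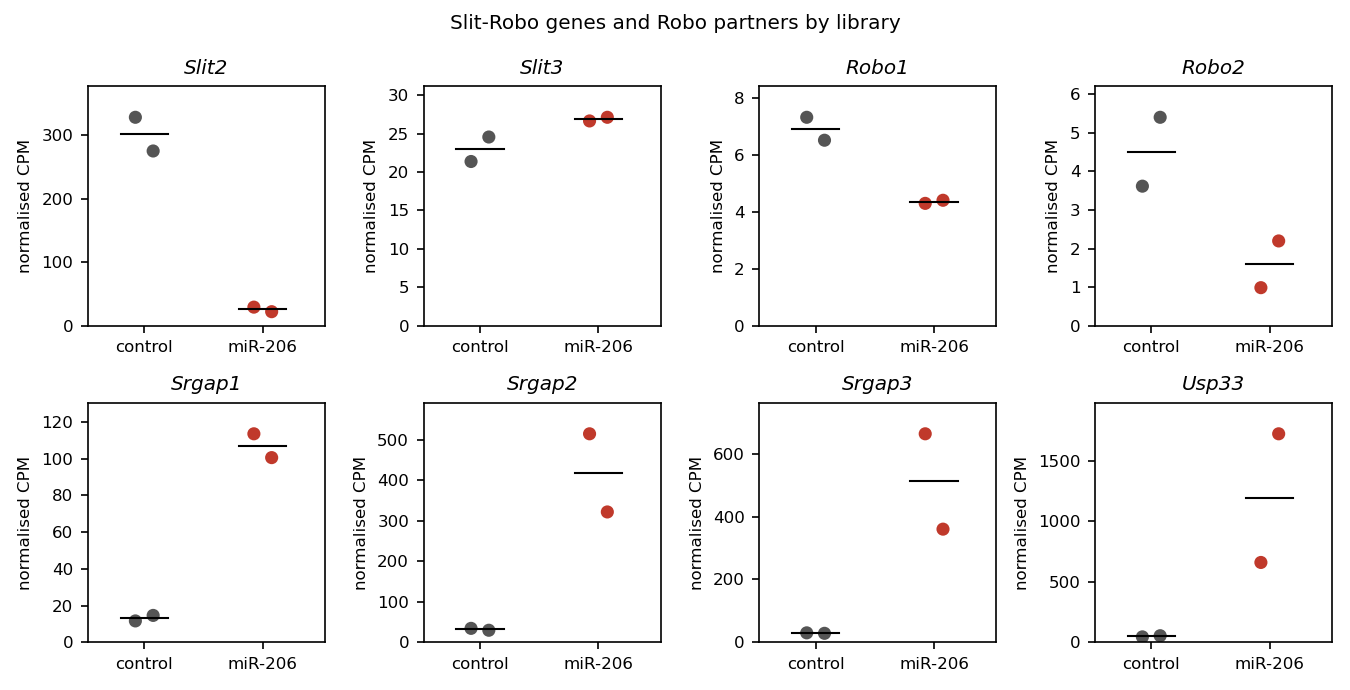
Normalised CPM of 4 Slit and Robo genes and 4 Robo partners in each library, on a linear axis from 0 for each gene; points are libraries (grey control, red miR-206) and the bar is the mean of 2. Slit2 falls from 328 and 275 to 29.5 and 22.4 normalised CPM, while Srgap1, Srgap2, Srgap3 and Usp33 rise and Slit3 stays between 21.4 and 27.1.

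Further ligands of the netrin receptors were enriched in the list. Rgma, a repulsive guidance molecule that binds neogenin, had 22.3 and 28.1 normalised CPM in the control and 379 and 341 in the miR-206 pulldowns (log2 fold 3.83 ± 0.36, edgeR adjusted p = 3.7e-07). Draxin, a secreted ligand of DCC, had 5.15 and 2.41 against 88.5 and 68.0 (4.38 ± 0.39). Flrt1, of a membrane protein family whose members bind UNC5 receptors, had 3.20 and 5.56 against 83.8 and 42.7 (3.84 ± 0.41). Rgmb (0.34 ± 0.37), Flrt2 (0.28 ± 0.33) and Flrt3 (-0.99 ± 0.91), relatives of these genes, did not pass, and the differences between relatives were not tested.

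On the Eph side the most enriched partner was Rasa1, a Ras GTPase-activating protein that binds activated EphB receptors. It had 41.0 and 39.8 normalised CPM in the control and 1974 and 3121 in the miR-206 pulldowns (log2 fold 5.98 ± 0.47, edgeR adjusted p = 9.5e-08). Fyn, a Src-family kinase (1.94 ± 0.32), the adaptors Nck2 (1.59 ± 0.32) and Sh2d3c (1.71 ± 0.39), the kinase Abl2 (1.05 ± 0.30) and Rgs3 (0.92 ± 0.32) passed as enriched with TMM and lost the call with TPM and with total counts alone. In those settings the fold of Rgs3 turned to -0.054 and -0.16, that of Abl2 to -0.069 with total counts, and that of Sh2d3c to -0.17 with TPM. Of the 6 scalings, Fyn passed under 4, Nck2 and Sh2d3c under 3, and Abl2 and Rgs3 under 2. The depleted effectors were the GTPases Cdc42 (-1.90 ± 0.38) and Rhoa (-1.33 ± 0.33), the Eph adaptor Anks1 (-1.45 ± 0.47) and the actin regulator Vasp (-0.91 ± 0.30). Anks1 and Vasp no longer passed in edgeR when control replicate 2 was left out (adjusted p = 0.197 and 0.167), without miR-206 replicate 1 (0.181 and 0.195) and without miR-206 replicate 2 (0.178 and 0.0990), while the calls of Cdc42 and Rhoa held in the 15 settings.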

How the data were processed

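Estimated counts and TPM were made by the authors with kallisto (mm10 build), per the submitters' processing notes; the sources used here give no versions, no annotation and no rule for joining transcripts into genes. The authors' deposited fold table gives each group's mean TPM, set to 0 below 1, and log2 folds of it. Columns were tied to samples by the barcodes in their titles, and 0 were left over. Estimated counts were rounded. edgeR 4.0.16 (R 4.3.3; TMM, glmQLFit with robust estimation, group as the only term) tested the 15240 genes kept by filterByExpr, with Benjamini-Hochberg adjustment over them. The SE is the size of the log2 fold divided by the square root of the F statistic. The fit was tested on simulated data. Alternatives used DESeq2 1.42.0, limma 3.58.1 on log2 TPM, other scalings and filters, the replicate number as a block, and each library left out. Intervals do not cover the choice of scaling.

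The members and lists were chosen with earlier results of these data known; within the gene families so chosen, symbols and no measured value set the members. The Schwann and neural marker list is not reported as a whole here. Each member is named; values in each library are given for members past the threshold or averaging 10 normalised CPM or more, and for some others chosen after their values were seen. Of the partner list, the rule took the 4 enriched and 4 depleted genes of smallest p; Srgap1, Srgap2, Usp33, Gpc1, Flrt1 and the remaining names were chosen after their values were seen. All 38 symbols matched RefSeq (GRCm38.p6), which gave coordinates and the miR-206 sequence.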

Additional observations from a re-analysis of the deposited data

How the results depend on the processing

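Guidance genes enriched numbered 5 with TMM, 7 with DESeq2 and with no filter (adding Efna2 and Unc5c) and 3 with total counts alone and with TPM (pseudocount 1 or 0.1, or a mean of 1 in a group); those depleted numbered 1, against 10 with total counts and 3 in each TPM setting without centring. Over all tested genes, 2327 were enriched, against 1070 (total counts), 1093, 1102 and 1063 (these TPM settings), and 944 depleted, against 1962 (upper quartile), 6909 (total counts), 5860, 5842 and 5357 (TPM). In the partner list, 14 were enriched against 9 with total counts and in each of these TPM settings, and 5 depleted against 9 (upper quartile), 22 (total counts), 19, 19 and 18 (TPM) and 3 (median-centred TPM). The median of all genes was -0.40 with the upper quartile, -1.22 with total counts and -0.70 with TPM, against -0.11. Leaving out 1 library gave 4 to 8 enriched and 1 depleted guidance gene each time, 1721 to 2533 enriched and 456 to 1567 depleted genes in all, and 13 to 14 enriched and 3 to 10 depleted partners; the 8 came without control replicate 1, and the 456 and 1567 without miR-206 replicate 1 and control replicate 1. With the replicate block 9 guidance genes were enriched and 1 depleted, adding Efna2, Epha4, Neo1 and Unc5c. Of all 15240 tested genes, 2576 were enriched and 1129 depleted with the block. The replicate numbers share no stated batch. Replicate differences correlated at r = -0.057 between the groups, across genes, so the block is no pairing.

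Of the guidance genes, 22 changed the sign of their fold in at least 1 setting, none of them called with TMM. With total counts alone 10 turned from positive to negative, of which Efnb2 (-1.08), Slit3 (-0.88) and Ephb4 (-1.01) then passed as depleted, and with TPM 10 turned so with either pseudocount and 9 with a mean of 1 in a group. With median-centred TPM 1 turned negative and 9 positive, with the upper quartile 5 turned negative, and leaving out 1 library turned 2 to 7. Of the called partners, Abl2 (-0.069) and Rgs3 (-0.16) turned sign with total counts, and Rgs3 (-0.054, -0.059 and -0.054) and Sh2d3c (-0.17, -0.20 and -0.17) with TPM at pseudocount 1, pseudocount 0.1 and a mean of 1 in a group. The ligand minus receptor difference lay between -0.076 (mean of 50 counts) and 0.43, inside the range of -0.25 to 0.79 over the single-library pairings. The cause was not tested. The largest SEs of the log2 fold, 0.80 to 1.18, were those of Slit1, Epha10, Ephb1, Efnb3, Robo3, Efna3, Dcc and Ephb6, with means under 3 normalised CPM.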

Other observations

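The counts behind 1 TPM of a gene, set against the library's median over all tested genes, should stay level between libraries if the same transcript is counted in each. It differed by more than 1.5-fold between libraries for 10 of 34 tested guidance genes, beside 14.7% of all tested genes. The widest ratios were 3.52 for Robo3, 3.45 for Ephb6 and 2.50 for Epha2. Ephb6 had 31 and 78 counts in the control pulldowns against 12 and 22 with miR-206, while its TPM were 0.832 and 1.95 against 0.818 and 0.921. Of the called genes Unc5a had a ratio of 1.87, Epha7 1.37, Slit2 1.33, Efna3 1.20, and Efnb1 and Efna4 1.06, and of the others Slit3 had 1.73. The sources used here do not say how transcripts were joined to genes, and the transcripts behind these ratios were not analysed.

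The authors' deposited table of folds holds 29 of the 38 guidance genes. In the authors' deposited table the log2 folds of mean TPM were -4.16 for Slit2, 2.54 for Epha7, 1.97 for Unc5a, 1.41 for Efna4 and 0.80 for Efnb1, computed without a test. The authors' deposited table sets the miR-206 mean to 0 for 5 guidance genes, Robo1, Robo2, Robo3, Ephb6 and Epha10, so its folds for these genes are those of a control mean against a value of 0 on the log2 scale. In the authors' deposited table Robo2 thus has a log2 fold of -1.69.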
